A study of Mus musculus with 8 samples.

Results

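The endothelial lineage genes were 10 genes of blood vessel formation: Etv2, Tal1, Kdr, Flt1, Tek, Tie1, Cdh5, Pecam1, Egfl7 and Vwf. They were taken as every non-control array probe that carried 1 of these gene names, which gave 20 of the 41174 probes on the array and 47 spots. Of the 20 probes, 14 were bright enough to be kept, and they measured 9 of the 10 genes. Both Pecam1 probes were too dim. To be kept, a probe had to stand well above background for 1 genotype on 3 or 4 arrays of a stage, which held for 21907 probes in all.

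The samples were pools of posterior embryo tissue, from the last somite boundary back to the base of the allantois, of Cdx2 null mutants and of wild type embryos, at 7/8 and at 4/5 somites. All embryos were of strain C57Bl6J/CBA. Cdx2 encodes a homeobox transcription factor active in the tail end of the embryo. RNA came from 20 embryos of each genotype and stage, and the pool of null and the pool of wild type embryos of a stage were hybridised together on 4 Agilent 2-colour arrays. Arrays 1 and 3 of each stage carried the null pool in Cy3 and arrays 2 and 4 in Cy5. Loss of Cdx2 is known to stop mouse embryos at implantation, and the sources used here do not say how null embryos of these stages were obtained, nor whether all of their cells lacked Cdx2. With 1 pool per genotype and stage, the spread over the 4 arrays of a stage is technical. Because the tissue was measured whole, fewer endothelial cells and less RNA per endothelial cell cannot be told apart.

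Blood vessels of the early embryo form by vasculogenesis, in which mesoderm cells become angioblasts and then join into tubes. Etv2, an ETS family transcription factor, and Tal1, a bHLH transcription factor, are early regulators of the blood and endothelial lineages. Kdr (VEGF receptor 2) is the main signalling receptor for VEGF-A and already marks the mesoderm from which these cells arise. The other members are the receptors Flt1 (VEGF receptor 1), Tek and Tie1, the junction proteins Cdh5 (VE-cadherin) and Pecam1, the secreted factor Egfl7, and Vwf, the adhesive protein that endothelial cells store in granules. Etv2, Tal1 and Kdr are grouped below as early regulators.

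The results turn on the following 60-base probes, shown so that the measured stretch of each transcript can be seen, with positions on build mm9 as the array files give them. Lower-case letters carry no marking. Kdr and Vwf have a dim probe at another position beside the one that changed, and those are shown too. The exon or UTR that holds each probe was not analysed here.
Etv2 probe A_51_P137560, chr7:31418776-31418835 (- strand): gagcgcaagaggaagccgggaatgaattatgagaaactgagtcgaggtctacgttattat
Kdr probe A_51_P316553, chr5:76329309-76329368 (- strand): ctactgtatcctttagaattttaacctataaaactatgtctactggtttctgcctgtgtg
Kdr dim probe A_52_P478193, chr5:76357639-76357698 (- strand): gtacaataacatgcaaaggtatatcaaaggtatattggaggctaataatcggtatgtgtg
Tal1 probe A_51_P255853, chr4:114744223-114744283 (+ strand): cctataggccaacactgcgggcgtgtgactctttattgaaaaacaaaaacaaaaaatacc
Egfl7 probe A_52_P15122, chr2:26447977-26448036 (+ strand): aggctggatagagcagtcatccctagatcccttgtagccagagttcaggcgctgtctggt
Flt1 probe A_51_P398723, chr5:148373791-148373850 (- strand): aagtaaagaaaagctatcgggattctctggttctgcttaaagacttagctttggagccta
Vwf probe A_51_P103397, chr6:125636551-125636610 (+ strand): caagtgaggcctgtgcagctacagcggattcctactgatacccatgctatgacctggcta
Vwf second probe A_51_P103406, chr6:125635858-125635917 (+ strand): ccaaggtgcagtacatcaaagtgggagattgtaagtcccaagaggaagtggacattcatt
Vwf dim probe A_51_P206886, chr6:125554568-125554627 (+ strand): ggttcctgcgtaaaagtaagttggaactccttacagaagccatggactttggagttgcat
The Etv2 probe began at base 847 of its transcript record, the changed Kdr probe at base 5377, the Tal1 probe at base 4029 and the brightest Vwf probe at base 8672. The second Vwf probe began at base 8422 of the same record. The dim Kdr and Vwf probes were designed on other transcript records than the bright ones.

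RefSeq promoter sequences (assembly GRCm38.p6, 300 bases around a gene's start) matched 7 of the 10 members, with 10 promoters. Those of Etv2 and Kdr, which moved together in what follows, are shown along each gene's strand. Capitals mark a match to CCGGAA, a form of site recognised by ETS factors such as Etv2, or to TTTATG, a core recognised by Cdx proteins, on either strand. The Kdr promoter held 1 CCGGAA match, read on the opposite strand as TTCCGG, and the Etv2 promoter held neither of these strings. Shorter or other forms of ETS site were not searched for.
Etv2 promoter, chr7:30635803-30636102 (- strand): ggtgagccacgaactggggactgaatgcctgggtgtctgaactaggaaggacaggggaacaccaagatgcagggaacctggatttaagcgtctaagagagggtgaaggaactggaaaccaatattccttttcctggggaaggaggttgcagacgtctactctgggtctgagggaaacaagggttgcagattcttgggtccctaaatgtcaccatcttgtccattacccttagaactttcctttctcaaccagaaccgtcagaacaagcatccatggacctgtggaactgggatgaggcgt
Kdr promoter, chr5:75978406-75978705 (- strand): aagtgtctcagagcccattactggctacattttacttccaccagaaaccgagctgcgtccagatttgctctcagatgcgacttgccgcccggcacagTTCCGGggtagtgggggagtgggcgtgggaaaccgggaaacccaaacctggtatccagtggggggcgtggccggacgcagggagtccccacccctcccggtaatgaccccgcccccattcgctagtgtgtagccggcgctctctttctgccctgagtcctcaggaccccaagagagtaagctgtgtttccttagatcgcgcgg
CCGGAA occurred in 1 of the 10 member promoters and in 14.9% of all 32851 promoters of this length. TTTATG occurred in 1 of the 10, a promoter of Egfl7, and in 11.9% of all. The E-box CANNTG, which bHLH factors such as Tal1 bind, occurred in 6 of the 10 and in 72.3% of all. These letters were searched on both strands and are a description of these windows only. CCGGAA and its reverse complement TTCCGG share the letters CCGG and can overlap.

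Between 46.5% and 58.9% of probes stood well above background per channel and array. Log2 ratios of kept probes correlated at r = 0.856 to 0.918 between arrays of 1 stage and dye order and at 0.477 to 0.516 between arrays of 1 stage with the dyes swapped, across probes that are not independent. Cdx2 itself was lower in null pools on all 8 arrays, with a mean log2 ratio of -1.39 (SE 0.09, n = 2 stages, limma adjusted p = 1.65e-07). Whether its probe lies outside the altered part of the allele is not given, so this value does not settle the labels. On array 1 of 4/5 somites, 58 of the 167 spots marked for an uneven local background over the 8 arrays were found, and these spots received the median background of their array.

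Of the 9 measured members, 4 fell in null pools over both stages (Etv2, Kdr, Egfl7 and Vwf), 1 rose (Flt1) and 4 did not pass the test (Tal1, Tek, Tie1 and Cdh5). The test was limma over all kept probes on 1 mean per stage, with p adjusted by Benjamini-Hochberg and a threshold of 0.05. It called 3.48% of kept probes lower and 4.94% higher in null pools. The median log2 ratio was -0.40 over the members, against -0.01 over all kept probes. Among the early regulators 2 of 3 fell, and their median ratio was -1.22 at 7/8 and -0.55 at 4/5 somites. Among the other 6 members 2 fell and 1 rose, with medians of -0.25 at 7/8 and -0.02 at 4/5 somites. The test has 1 residual degree of freedom per probe, so its p-values measure the spread between the stages and lean mostly on the spread pooled over all probes.

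**Figure D1:**
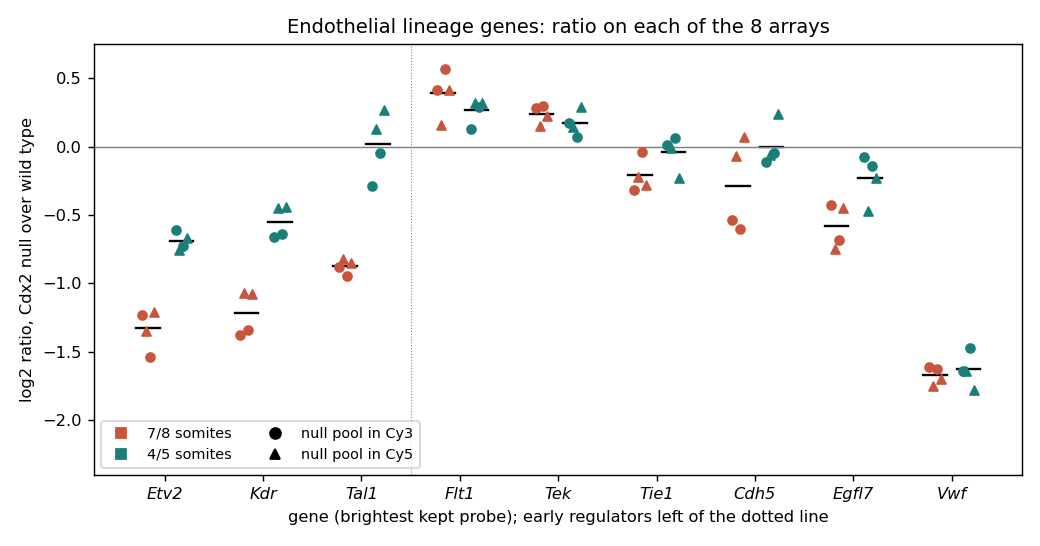
Log2 ratio of Cdx2 null over wild type (vertical axis) for the brightest kept probe of the 9 measured members on each of the 8 arrays. Circles are arrays with the null pool in Cy3, triangles arrays with it in Cy5, and black bars are means of 4 arrays. Etv2 and Kdr lie below 0 at both stages and lower at 7/8 somites, Tal1 lies near -0.87 at 7/8 somites and around 0 at 4/5 somites, and Vwf lies near -1.65 at both.

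Etv2, which can turn mesoderm toward the endothelial and blood fates, was lower in null pools on all 8 arrays. Its log2 ratio was -1.23, -1.35, -1.54 and -1.21 on arrays 1 to 4 of 7/8 somites. On arrays 1 to 4 of 4/5 somites it was -0.61, -0.76, -0.73 and -0.67. The stages did not overlap, and every 7/8 somite array lay below every 4/5 somite array. The stage means were -1.33 ± 0.15 at 7/8 somites and -0.69 ± 0.07 at 4/5 somites (SD of 4 arrays), which are 2.52-fold and 1.62-fold falls. The original dye swap pair (bio1, arrays 1 and 2) and its technical repeat (tech1, arrays 3 and 4) gave -1.29 and -1.37 at 7/8 somites, and -0.69 and -0.70 at 4/5 somites. Over both stages Etv2 fell by 1.01 on the log2 scale (SE 0.12, n = 2 stages, limma adjusted p = 2.95e-05).

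Kdr, the receptor through which VEGF-A drives endothelial growth, followed the same course. Its bright probe was printed on 10 spots per array. The log2 ratio was -1.38, -1.07, -1.34 and -1.08 on arrays 1 to 4 of 7/8 somites, and -0.66, -0.45, -0.64 and -0.44 on those of 4/5 somites. Arrays with the null pool in Cy3 gave the lower values at each stage, yet all arrays of 7/8 somites lay below all of 4/5 somites. The means were -1.22 ± 0.16 at 7/8 somites and -0.55 ± 0.12 at 4/5 somites (SD of 4 arrays), 2.32-fold and 1.46-fold falls. Over both stages Kdr fell by 0.88 (SE 0.12, n = 2 stages, limma adjusted p = 0.000139). The second Kdr probe, also on 10 spots, was not well above background in either genotype on any array.

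Calls for both genes were lost with no background correction, where the limma adjusted p was 0.068 for Etv2 and 0.0938 for Kdr, and with no filter on dim probes, where it was 0.0545 and 0.0779. The ratios themselves were -0.92 and -0.79 without background correction, and lower in null pools in all 19 alternatives.

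Tal1, needed for blood formation and active in early endothelium, differed by stage in these arrays. At 7/8 somites its log2 ratio was -0.88, -0.82, -0.95 and -0.85 on arrays 1 to 4, a mean of -0.87 ± 0.06 (SD of 4 arrays) and a 1.83-fold lower level in null pools. The 4/5 somite arrays gave -0.29, 0.13, -0.05 and 0.27, a mean of 0.02 ± 0.24. The 4/5 somite values took their sign from the dye order, below 0 with the null pool in Cy3 and above 0 with it in Cy5. Over both stages the ratio was -0.43 (SE 0.14, n = 2 stages) and did not pass the test (limma adjusted p = 0.0724). On array 3 of 4/5 somites both channels of the Tal1 probe were dimmer than elsewhere, with log2 levels of 7.47 for null and 7.52 for wild type. In 4 of 19 alternatives Tal1 passed the test, and its adjusted p ranged from 0.0225 to 0.455. One of these left out array 1 of 4/5 somites (ratio -0.38, limma adjusted p = 0.0279), and the others were the bio1 pairs alone, the tech1 pairs alone and the brightest probe of each gene only.

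Read as the ratio at 7/8 somites minus that at 4/5 somites, the change with stage was -0.64 for Etv2, -0.67 for Kdr and -0.89 for Tal1 on the log2 scale. In each of these 3 early regulators the arrays of 7/8 somites all lay below those of 4/5 somites, which was so for 8.04% of kept probes and for 0 of the other 6 members. With median centring in place of loess the arrays of the stages overlapped for all 3, while the differences of stage means were -0.53, -0.55 and -0.83. Over the 19 alternatives the difference stayed below 0 for each of the 3, between -0.74 and -0.53 for Etv2, between -0.78 and -0.55 for Kdr and between -1.12 and -0.74 for Tal1. No member reached a 2-fold difference between stages without overlap, which 0.0456% of kept probes did. Tal1 reached it in 3 alternatives, at -1.12 with the scanner's processed signals, -1.01 within the tech1 pairs and -1.03 on arrays with the null pool in Cy5. A test of the stage difference was not possible, since each stage has 1 pool per genotype.

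**Figure D2:**
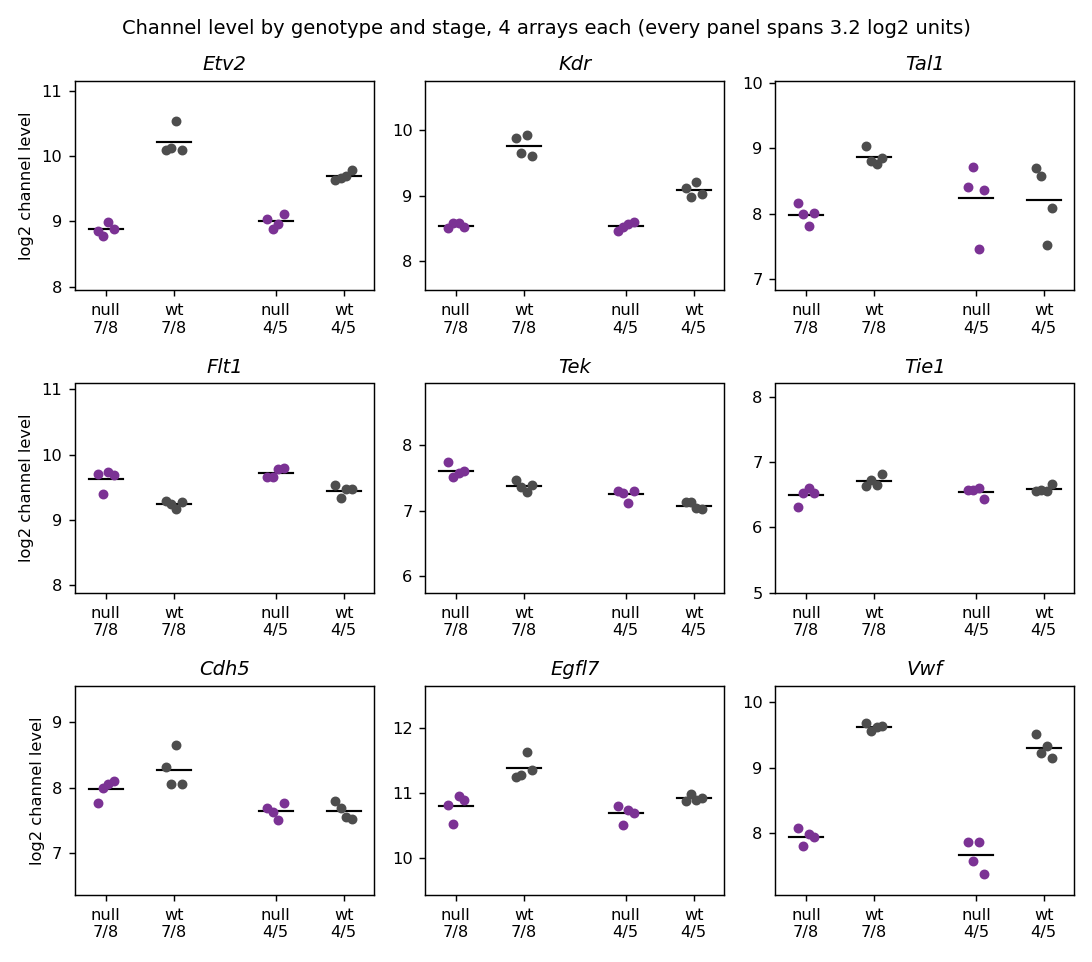
Log2 channel level (vertical axis, after loess and scaling between arrays) of the 9 measured members in null and wild type channels at 7/8 and 4/5 somites, 4 arrays each, with black bars at the means. Panels span the same 3.2 log2 units. Etv2 and Kdr null levels overlap between the stages while wild type levels are higher at 7/8 somites, and Vwf null levels lie below wild type at both stages.

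Channel levels, the log2 brightness of each dye after normalisation, give each genotype on its own. Etv2 in null pools read 8.86, 8.77, 8.99 and 8.89 on arrays 1 to 4 of 7/8 somites, against 10.09, 10.12, 10.53 and 10.09 in wild type. The null pool of 4/5 somites read 9.03, 8.89, 8.96 and 9.11, against 9.64, 9.66, 9.70 and 9.78 in wild type. The genotypes did not overlap at either stage. The 7/8 minus 4/5 somite difference of Etv2 was -0.12 in null pools and 0.51 in wild type.

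Kdr in null pools averaged 8.54 ± 0.04 at 7/8 somites, against 9.76 ± 0.16 in wild type (SD of 4 arrays). Its 4/5 somite level averaged 8.54 ± 0.06 in the null pool and 9.08 ± 0.10 in wild type. Kdr thus differed between stages by 0.01 in null pools and by 0.68 in wild type. For Tal1 the difference was -0.24 in null pools, with overlapping arrays, and 0.64 in wild type, without overlap. These values rested on array 3 of 4/5 somites, where both Tal1 channels were dim. Without it they were -0.50 in null pools, with every 7/8 somite array below every 4/5 somite array, and 0.41 in wild type, still without overlap.

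In wild type 7 of the 9 members had every 7/8 somite array above every 4/5 somite array, which held for 8.54% of kept probes. These were Etv2, Kdr, Tal1, Egfl7 (0.46), Cdh5 (0.62), Vwf (0.32) and Tek (0.29), with the difference in log2 level in brackets. In null pools it was so for 2 of 9, Tek (0.36) and Cdh5 (0.33), against 11.3% of kept probes, and for 4 without array 2 of 7/8 somites. Flt1 went the other way in wild type, with every 7/8 somite array below every 4/5 somite array (-0.21, and -0.09 without scaling between arrays). None of the 9 was at least 2-fold higher in wild type at 7/8 somites, as 0.073% of kept probes were. Other scalings of the channels gave 7 and 8 members in wild type and 2 and 2 in null pools. Under both of these the 2 in null pools were Tek and Vwf (0.41 and 0.42 for Vwf), and the Cdh5 arrays overlapped. Without scaling between arrays the median of all kept probes shifted by 0.11 in null and 0.10 in wild type channels, and Etv2 then differed by -0.01 in null pools and 0.63 in wild type.

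Vwf, the clotting and adhesion protein of endothelial cells and platelets, had the lowest ratio of the members. Its log2 ratio was -1.61, -1.75, -1.63 and -1.70 on arrays 1 to 4 of 7/8 somites. At 4/5 somites it was -1.64, -1.64, -1.47 and -1.78. All 8 arrays lay far below 0 and the stages overlapped, with means of -1.67 ± 0.07 at 7/8 and -1.63 ± 0.13 at 4/5 somites (SD of 4 arrays), 3.19-fold and 3.10-fold falls. Within the bio1 and the tech1 pair of arrays it was -1.68 and -1.67 at 7/8 somites and -1.64 and -1.63 at 4/5 somites.

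Over both stages Vwf fell by 1.65 (SE 0.08, n = 2 stages, limma adjusted p = 8e-09), a 3.14-fold fall, and this call held in all 19 alternatives. In levels, null pools averaged 7.95 ± 0.11 at 7/8 somites, against 9.63 ± 0.05 in wild type, and 7.67 ± 0.24 at 4/5 somites, against 9.30 ± 0.15 in wild type (SD of 4 arrays). The second Vwf probe read -1.05 over both stages (SE 0.09, n = 2 stages). It was kept only through wild type, where it stood well above background on all 4 arrays of each stage. In the null pool of 7/8 somites it did so on 2 of 4 arrays, so no test of it is given. On no array of 4/5 somites did it stand well above background in the null pool, with a mean level of 6.39 in null against 7.32 in wild type, so it gives a bound there of at least 1.84-fold lower. The last Vwf probe, A_51_P206886, was dim in both genotypes on all arrays.

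A fall of at least 2-fold on all 4 arrays of a stage was seen for 3 of the 9 members at 7/8 somites (Etv2, Kdr and Vwf), against 0.205% of kept probes. At 4/5 somites it was seen for 1 of 9 (Vwf), against 0.137% of kept probes.

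Egfl7, secreted by endothelial cells and host gene of a microRNA, was lower in null pools on all 8 arrays by a smaller amount. The log2 ratio was -0.43, -0.75, -0.68 and -0.45 on arrays 1 to 4 of 7/8 somites, and -0.08, -0.47, -0.14 and -0.23 on those of 4/5 somites. The arrays of the stages overlapped slightly. Over both stages Egfl7 fell by 0.40 (SE 0.09, n = 2 stages, limma adjusted p = 0.0128), but 10 of 19 alternatives lost the call, with an adjusted p of up to 0.154. Arrays whose removal lost it were arrays 2 and 4 of each stage, with ratios of -0.38 and -0.43 without those of 7/8 somites and -0.36 and -0.40 without those of 4/5 somites.

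Flt1, which binds VEGF-A strongly and signals weakly, moved the other way. Its brightest probe had log2 ratios of 0.41, 0.16, 0.57 and 0.41 on arrays 1 to 4 of 7/8 somites. At 4/5 somites they were 0.13, 0.32, 0.29 and 0.32. All 8 arrays lay above 0. Over both stages Flt1 rose by 0.33 (SE 0.09, n = 2 stages, limma adjusted p = 0.0243), 1.25-fold, and 13 of 19 alternatives lost the call (adjusted p of up to 0.107). Leaving out array 2, 3 or 4 of 7/8 somites gave 0.37, 0.30 and 0.32, and leaving out array 2 or 4 of 4/5 somites gave 0.32 and 0.32, each without a call. The other kept Flt1 probes both read 0.18 and did not pass the test (adjusted p = 0.237 and 0.234), and 2 further probes were dim.

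Tek, Tie1 and Cdh5 did not pass the test. Tek, the angiopoietin receptor, read 0.20 (SE 0.08, limma adjusted p = 0.171), above 0 on all 8 arrays, and its second probe read 0.01. Tie1, a receptor that modulates Tek, read -0.13 (SE 0.09, adjusted p = 0.453) on a dim probe that was well above background in the null pool on 2 of 4 arrays at each stage.

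Cdh5, the cadherin of endothelial junctions, read -0.14 (SE 0.09, limma adjusted p = 0.435), and its second, dimmer probe 0.04. At 7/8 somites Cdh5 gave -0.54 and -0.60 with the null pool in Cy3 and -0.07 and 0.07 with it in Cy5, so its value there followed the dye. Pecam1, an adhesion molecule between endothelial cells, had no kept probe. Its brighter probe was well above background on 2 of 4 arrays in each genotype and stage, and ratios there lay between -0.00 and 0.14.

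**Figure D3:**
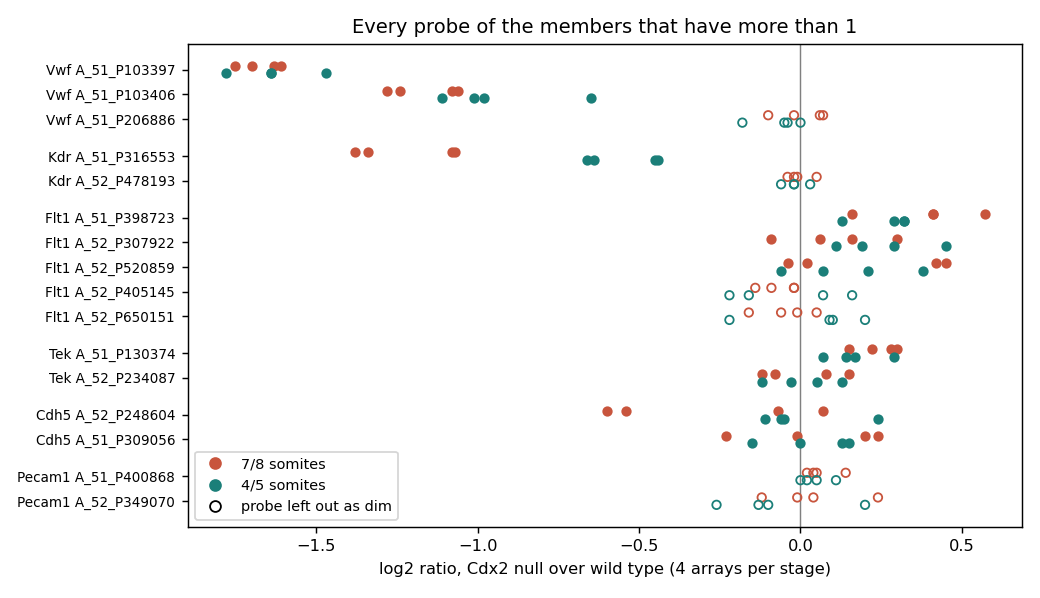
Log2 ratio of Cdx2 null over wild type (horizontal axis) on the 4 arrays of each stage for every probe of the members with more than 1 probe. Filled points are kept probes and open points are probes left out as dim. Both kept Vwf probes lie below -0.6 on all arrays, while the dim probes of Vwf and Kdr lie close to 0.

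Wider lists of the pathway give the setting of these genes. The counts of genes called in each list stand beside 4.94% of all kept probes called higher and 3.48% called lower. Among 17 measured endothelial transcription factors, 4 rose and 13 did not pass the test, with a median ratio of 0.15 against -0.01 over all kept probes. Sox17, an arterial and endodermal factor, rose by 0.58 (adjusted p = 0.000937), Hey2, a Notch target, by 0.40 (0.00627) and Prox1, known from lymphatic vessels, by 0.34 (0.0205). Foxc2, with a sign that differed between arrays and named after its values were seen, read 0.09 at 7/8 and 0.89 at 4/5 somites (mean 0.49, limma adjusted p = 0.0277). Sox17 and Prox1 are also active in other tissues, among them endoderm.

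Part of this list shared with the early regulators a lower ratio at 7/8 than at 4/5 somites. Etv2 and Kdr lay below 0 at both stages, while several of these factors lay above 0 at 4/5 somites. The median ratio of the 17 factors was -0.04 at 7/8 and 0.29 at 4/5 somites. In 8 of the 17 every 7/8 somite array lay below every 4/5 somite array, against 8.04% of kept probes. In 1, Sox17, every one lay above, for which the share of all kept probes is not given. The genes named next were picked after their values were seen. Lyl1, a bHLH relative of Tal1, read -0.68 at 7/8 and 0.02 at 4/5 somites, and Hhex, an early endothelial and endodermal homeobox gene, read -0.63 at 7/8 and 0.03 at 4/5 somites. Sox18 read -0.45 at 7/8 and -0.06 at 4/5 somites. Sox7, like Sox18 a Sox factor of endothelium, read -0.19 at 7/8 and 0.47 at 4/5 somites, and the ETS factor Ets1 read -0.14 at 7/8 and 0.29 at 4/5 somites. The venous factor Nr2f2 read -0.06 at 7/8 and 0.37 at 4/5 somites, and Foxc1 read 0.03 at 7/8 and 0.39 at 4/5 somites. Foxc2, given above, was the last of the 8 and alone among them passed the test over both stages. Fli1, an ETS factor of established endothelium, read -0.04 at 7/8 and 0.35 at 4/5 somites, and its relative Erg read 0.04 at 7/8 and 0.16 at 4/5 somites.

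Among 7 measured VEGF and angiopoietin ligands and co-receptors, 1 rose and 1 fell. Vegfc, the ligand of lymphatic growth, rose by 0.44 (limma adjusted p = 0.00327), and Angpt2, a Tek ligand, fell by 0.53 (adjusted p = 0.000642). Among 22 measured surface and junction genes, 3 rose and 1 fell, with a median of -0.05. In 6 of these 22 the 7/8 somite arrays all lay below those of 4/5 somites, against 8.04% of kept probes, and in 1 all above. Robo4, an endothelial guidance receptor, rose by 0.50, and Ecscr, an endothelial surface protein, by 0.38. Aplnr, the apelin receptor, also passed the test with 0.50 but not with 1 sign on all arrays, and is named after its values were seen.

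Gja4, an arterial gap junction gene, fell by 0.46 (limma adjusted p = 0.0256) and read -0.81 ± 0.11 at 7/8 and -0.11 ± 0.03 at 4/5 somites (SD of 4 arrays). Among 6 measured Notch and Eph genes of arteries and veins, 1 rose, the arterial ligand gene Efnb2, by 0.55 (limma adjusted p = 0.000448). In 0 of these 6 did the 7/8 somite arrays all lie below those of 4/5 somites, against 8.04% of kept probes. In 3 of them, Ephb4, Jag1 and Notch1, they all lay above, the opposite of the early regulators. These 3 were named after their values were seen, and the share of all kept probes that lay above is not given. The calls of Gja4, Foxc2, Prox1, Ecscr and Aplnr were lost in 13, 14, 9, 7 and 5 of 19 alternatives. Those of Sox17 and Robo4 were lost in 2, those of Hey2, Vegfc and Angpt2 in 1, and that of Efnb2 in 0.

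**Figure D4:**
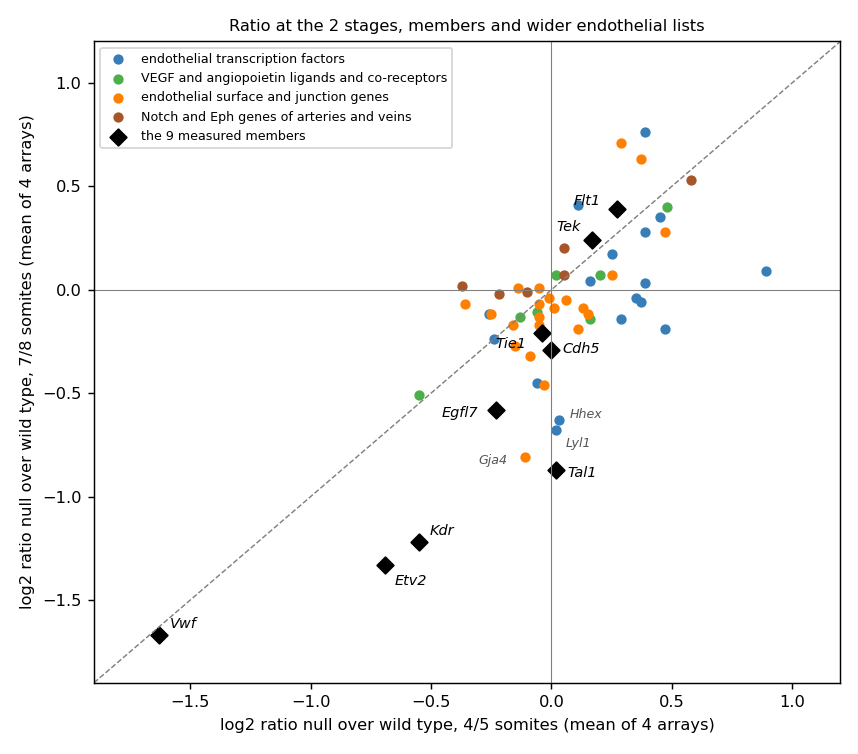
Mean log2 ratio of Cdx2 null over wild type at 7/8 somites (vertical axis) against that at 4/5 somites (horizontal axis) for the 9 measured members (black diamonds) and the measured genes of 4 wider lists, each point a mean of 4 arrays per stage. The dashed line marks equal ratios. Etv2, Kdr and Tal1 lie below the line, as do Lyl1, Hhex and Gja4, and Vwf lies close to it.

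Markers of other cells in the tissue are given beside these results, for most lists as the summed channel brightness over the measured genes. Counts of called markers again stand beside 4.94% of kept probes higher and 3.48% lower. Primitive erythroid markers, which share a mesodermal origin with endothelium, summed to 5269 to 5956 in null against 6186 to 6509 in wild type at 7/8 somites. At 4/5 somites they summed to 1335 to 1392 in null against 1533 to 1606 in wild type. Of 8 measured, 1 fell, the embryonic globin gene Hbb-bh1, by 0.39 (limma adjusted p = 0.0165, lost in 10 of 19 alternatives), and 7 did not pass the test. Gata1, Nfe2 and Rhag were among those too dim.

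Megakaryocytes and platelets also make Vwf. Their markers were mostly too dim, with Pf4, Itga2b, Gp1ba, Gp5, Gp9 and Ppbp not kept. Gp1bb, a subunit of the platelet receptor for Vwf, was measured and read -0.00 over both stages (limma adjusted p = 0.993).

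Allantois markers, of interest because the tissue was cut at the base of the allantois, included 3 of 8 measured that rose and 1 that fell. The other 4 did not pass the test, and the median ratio of the list was 0.25. Snai2 rose by 1.27, Ahnak by 0.80 and Postn by 0.44 (lost in 14 of 19 alternatives), and Bmp4 fell by 0.49. Defining markers Tbx4 and Vcam1 were too dim. The list summed to 11794 to 12609 in null against 8969 to 9734 in wild type at 7/8 somites, and to 9140 to 10306 in null against 6837 to 7738 in wild type at 4/5 somites. Such a sum weighs the brightest genes most.

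Of 12 visceral endoderm markers 5 rose in null pools, among them Cubn by 1.18, Amn by 0.97 and Apoe by 0.96, and 7 did not pass the test. The others that rose were Apom, by 0.43, and Apoa1, by 0.31 and named after its values were seen. Their calls were lost in 1 and 16 of 19 alternatives. The 12 markers summed to 30449 to 31814 in null against 21756 to 22474 in wild type at 7/8 somites. At 4/5 somites they summed to 50977 to 55548 in null against 33251 to 36461 in wild type. These sums weigh the brightest genes most, and the median ratio of the list was 0.21. Afp, picked after its values were seen, did not pass the test and read -0.82 at 7/8 and 0.48 at 4/5 somites. Of 8 mesenchyme and smooth muscle markers 3 rose (Col1a1 by 0.61, Pdgfrb by 0.60 and Twist1 by 0.39, the last lost in 6 of 19 alternatives). The other 5, named after their values were seen, did not pass the test, and the median ratio of the list was 0.10. Col1a2 (-0.22), Prrx1 (-0.18), Acta2 (-0.08) and Tagln (-0.05) read below 0 and Pdgfra (0.26) above. The part of these other cell types in the values of the endothelial genes was not tested.

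By the correlation of channel levels over the 16 channels of the 8 arrays, the genes whose pattern was most like that of Etv2 were Hoxa10 (r = 0.972), Lgals3bp (0.968), Cck (0.966), Sparcl1 (0.966) and Kdr (0.964). Those most like Vwf were Rgn (0.985), Saa3 (0.984), Lypd6b (0.984), Dusp4 (0.98) and Gng2 (0.98). Of the members, Etv2 correlated with Kdr at 0.964, with Vwf at 0.923, with Egfl7 at 0.88, with Tie1 at 0.66, with Tal1 at 0.565, with Cdh5 at 0.488, with Tek at -0.356 and with Flt1 at -0.845. Tal1, though grouped with Etv2 by role, was thus less like Etv2 in level than Vwf and Egfl7. The order of Tal1 and Tie1 is not settled by these values. They include the array on which both Tal1 channels were dim, and the correlation was not computed without it. The Tie1 probe was itself dim. The 16 levels come from 4 pools and share arrays and dyes, so these values describe likeness and carry no test.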

How the data were processed

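RNA was stabilised in RNAlater, isolated with a RiboPure kit, amplified linearly from 300 ng and labelled, per the labels' protocols. The deposited scanner files hold spot and background intensity values without normalization, per the file headers. The scanner's log ratio is a log10 value with Cy5 on top, and the deposited series matrix holds the same log10 ratios turned to null over wild type, equal at 45018 of 45018 spots on each array (tolerance 1e-05). Agilent Feature Extraction is given as version 9.5.3 in the submitters' processing notes and as 10.5.1.1 in the file header.

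From the deposited intensities, log2 ratios were computed in limma 3.58.1, under R 4.3.3 and after reading the files with data.table (version 1.17.8), by normexp (offset 50), loess within arrays and control spots at weight 0. Summaries and plots used Python 3.11.15 with pandas 2.3.3, numpy 2.4.6 and matplotlib 3.10.9. Spots marked for an uneven local background received the median background of their array. Spots marked as outliers (1184, 0.341%) were left out, 0 spots were saturated, and spots of a probe were averaged. The direction of each ratio came from the genotype and dye in the labels. The 4 arrays of a stage carry the same pools and were averaged to 1 value, and lmFit and eBayes tested the 2 stage values against 0 (two-sided, prior of 14.92 degrees of freedom), with Benjamini-Hochberg adjustment over 21907 probes. Channel levels were scaled with Aquantile. A gene is described by its brightest kept probe. Arrays labelled bio1 and those labelled tech1 lay on 1 slide each with both stages, per the file headers, so slide and dye swap pair are the same batch. The fit was run on simulated data with the same noise spread for every probe and equal changes at both stages. These arrays differ in both respects, so that run does not test the p-values given here.

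Named genes are all members, Cdx2, up to 4 called genes per list with 1 sign on all 8 arrays, and the 5 genes most correlated with Etv2 and with Vwf. Exceptions are named as picked later. The members, lists and the uneven background step were chosen with earlier results of these data known. Alternatives covered background, normalization, filter, single arrays, pairs and dyes. Coordinates are mm9 for probes and GRCm38.p6 for promoters. Some items of the marker lists are not reported here.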

Additional observations from a re-analysis of the deposited data

Results flagged for a closer look

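For the brightest Flt1 probe, the log2 ratio of 0.13 on array 1 of 4/5 somites stood apart from the 0.32, 0.29 and 0.32 of the other arrays of that stage, a gap beyond Dixon's limit for 4 values. It was 1 of 28 such groups examined, and chance alone marks about 1 in 20.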

How the results depend on the processing

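Over both stages 1845 probes passed the test (58.6% of them higher in null pools). The count was 345 with no background correction, 812 with uneven local backgrounds kept, 765 with median centring (78.3% higher), 664 with no filter on dim probes, 3110 with the dye swap pair as a replicate block, and 942 to 2168 with single arrays left out. Arrays 2 and 4 of each stage gave the lowest of these counts, 964 and 1090 without those of 7/8 somites and 942 and 1062 without those of 4/5 somites, and the lowest of 3 members below. Member genes past the test numbered 5, and 1 with no background correction, 3 with uneven backgrounds kept, 3 with median centring, 1 with no filter, 3 with the null pool in Cy3 only, 6 with the replicate block, 5 within the bio1 pairs, 6 within the tech1 pairs and 3 to 6 with single arrays left out. The member added by the replicate block was Tek (limma adjusted p = 0.0377), and no other member's call changed under it. That setting enters the bio1 and tech1 pairs, which carry the same pools, as separate values. Technical repeats thus count as replicates there, and its larger counts do not rest on further pools. Arrays with the same number share dye order and slide, and across stages they and others of that dye order correlated at 0.498 to 0.591, against 0.235 to 0.307 with dyes swapped. Tie1 passed with the scanner's processed signals (-0.50, limma adjusted p = 0.031). Its probe was kept only through wild type at 7/8 somites, so no conclusion is drawn from that call. Cdh5 turned from -0.14 to 0.04 on arrays with the null pool in Cy5. A 2-fold stage difference, met by 0 members, was met by 1 with processed signals, by 1 within the tech1 pairs and by 1 with the null pool in Cy5 only. With the null pool in Cy3 only, 6 members and not 3 had every 7/8 somite ratio below those of 4/5 somites. Probes at least 2-fold apart at 7/8 somites numbered 91, and 60 with no background correction, 354 with processed signals and 87 to 94 with single arrays left out. At 4/5 somites they numbered 64, and 33 with no background correction, 31 with uneven backgrounds kept, 328 with processed signals and 57 to 70 with single arrays left out. Members higher at 7/8 somites on all arrays numbered 2 in null pools and 7 in wild type, and 2 to 4 and 7 to 8 with single arrays left out. The replicate block cannot be applied to size rules. The other scalings of channel levels, and leaving out arrays from them, were chosen after seeing the data. The causes of these shifts were not tested, and dim probes such as those of Tie1 and Pecam1 limit what could be measured.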
